A study of Rattus norvegicus with 18 samples.

Results

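The 5 circadian clock genes described here are Dbp, Per2, Nr1d1, Nr1d2 and Bhlhe40. They were chosen by name, with earlier results of these data known. Every probe set that the platform annotation gives to 1 of these symbols alone was taken. This gave 5 of the 4736 genes measured and 7 of the 8740 probe sets tested (2 for Dbp, 2 for Nr1d1 and 1 for each of the others). The levels come from 18 one-colour Affymetrix arrays of 2 established rat thyroid cell lines, with 3 biological replicates in each of 6 groups. FRTL5 is described by its labels as differentiated thyrocytes. They grew for 5 days in 5H medium lacking TSH (thyroid-stimulating hormone), and then stayed untreated (basal) or received bovine TSH at 0.1 U/L for 30 min or 17 h. FRT/TSHR is described as de-differentiated thyrocytes, and its name states that it carries the TSH receptor. These cells were grown in Coon's modified F12 medium and were left untreated or given bovine TSH at 1 U/L for the same times. Both lines were deprived of serum for 12 h before they were stimulated. Line, dose and medium therefore differed together and cannot be told apart. Neither line has an untreated group for 30 min or 17 h, so TSH and time since the basal harvest cannot be told apart, and the labels give no time of day. Whether FRT/TSHR is 1 clone, and how the receptor was introduced, is not given in the sources used here.

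In the mammalian clock the activators BMAL1 and CLOCK bind E-boxes and switch on the genes of their own repressors, the PER and CRY proteins. A second loop runs through the REV-ERB receptors, encoded by Nr1d1 and Nr1d2, which repress Bmal1, and through the D-box activator DBP, an output of the clock. Some cultured cell lines keep this oscillator. There, stimuli such as serum and cAMP can reset it through fast transcription of some of these genes, including Per1 and Per2. Whether FRTL5 or FRT/TSHR cells oscillate was not tested.

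The sequences just upstream of 3 of these genes are shown first, since the clock acts on its genes through short elements in such DNA: Dbp and Per2 are the genes that fell after 17 h of TSH in FRTL5, and Bhlhe40 is the one called higher in FRT/TSHR. They come from RefSeq on GRCr8, 5′ to 3′ on the gene's own strand, and each ends at the base before the start site. The Dbp window lies at chr1:105312006-105312255 (plus strand), the Per2 window at chr9:99496994-99497243 (minus strand) and the Bhlhe40 window at chr4:143174200-143174449 (plus strand). Capitals mark matches to the E-box CACGTG or the D-box TTATGTAA.
Dbp: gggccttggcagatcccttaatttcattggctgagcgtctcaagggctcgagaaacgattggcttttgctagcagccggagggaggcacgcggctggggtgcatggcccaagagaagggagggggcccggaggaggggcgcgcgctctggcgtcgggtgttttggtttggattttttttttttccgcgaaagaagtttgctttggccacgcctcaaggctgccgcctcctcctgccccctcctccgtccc
Per2: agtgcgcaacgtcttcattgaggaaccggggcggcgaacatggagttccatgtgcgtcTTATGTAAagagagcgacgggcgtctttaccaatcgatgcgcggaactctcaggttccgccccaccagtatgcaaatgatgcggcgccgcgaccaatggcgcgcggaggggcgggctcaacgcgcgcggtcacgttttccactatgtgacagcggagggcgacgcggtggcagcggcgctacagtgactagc
Bhlhe40: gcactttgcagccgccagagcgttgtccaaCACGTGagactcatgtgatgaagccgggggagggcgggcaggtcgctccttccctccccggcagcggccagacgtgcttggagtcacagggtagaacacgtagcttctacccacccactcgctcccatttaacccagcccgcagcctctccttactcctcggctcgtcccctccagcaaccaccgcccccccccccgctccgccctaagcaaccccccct
Both strands were searched for the E-box, the D-boxes TTATGTAA and TTACGTAA, the cAMP response element (CRE) TGACGTCA and its core TGACG, and the REV-ERB and ROR element cores TAGGTCA and GGGTCA. The core TGACG is part of the full CRE, so their matches can overlap. Only these exact letters were searched for. Other forms of these elements, such as E-boxes that differ from CACGTG, would be missed in any window, that of Per2 included. Per2 held the D-box TTATGTAA, starting 192 bases before its start site, and 0.828% of 33469 RefSeq promoters of the same length held those letters. Bhlhe40 held an E-box 220 bases before its start site. Nr1d1 has 2 start sites in the table, at which the windows are chr10:84231813-84232062 and chr10:84229455-84229704 (both minus strand), and only the window of the second held an E-box, 191 bases before the start. An E-box was present in 5.59% of the promoters. No searched motif was found in the windows of Dbp, of Nr1d2 (chr15:9954784-9955033, plus strand) or of the first Nr1d1 start, which says only that these letters are not in these windows. Full CREs stood in 1.59% of all promoters and TGACG in 18.2%, and none of the 6 member windows held either.

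Before the results, 3 arrays and the line labels need a statement. The FRTL5 arrays numbered 1 in all 3 groups had a beta-actin 3′ minus 5′ signal of 1.13 to 1.22 (log2), while the other 15 arrays stayed at or below 0.28, and values without them stand beside the results that move most. Thyrocyte markers followed the labels in part. Of the 6 measured, 4 were called lower in basal FRT/TSHR than in basal FRTL5 (12.2% of all probe sets were). The other 2 did not pass, and 1 of the 6 values was higher in FRT/TSHR. The log2 levels of the 6 summed to between 47.4 and 53.7 on FRTL5 arrays and to between 37.3 and 38.6 on FRT/TSHR arrays. Thyroglobulin, Tg, makes up a large part of that gap. It differed by -7.04 ± 0.36 (log2, SE) in basal FRT/TSHR against basal FRTL5 cells. Of the 4 Tshr probe sets, 3 were lower in basal FRT/TSHR (-0.81, -2.15 and -3.96) and 1 did not pass (0.04, adjusted p = 0.912); whether any of them matches the introduced receptor was not tested. Markers of C cells (3 measured), endothelium (3), leukocytes (2) and fibroblasts (5) gave no call in any TSH comparison within a line, and between the basal lines only Pdgfra was lower in FRT/TSHR (-0.62, adjusted p = 0.0229, on its brightest probe set and not on the others, at 0.02 to 0.12).

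**Figure D1:**
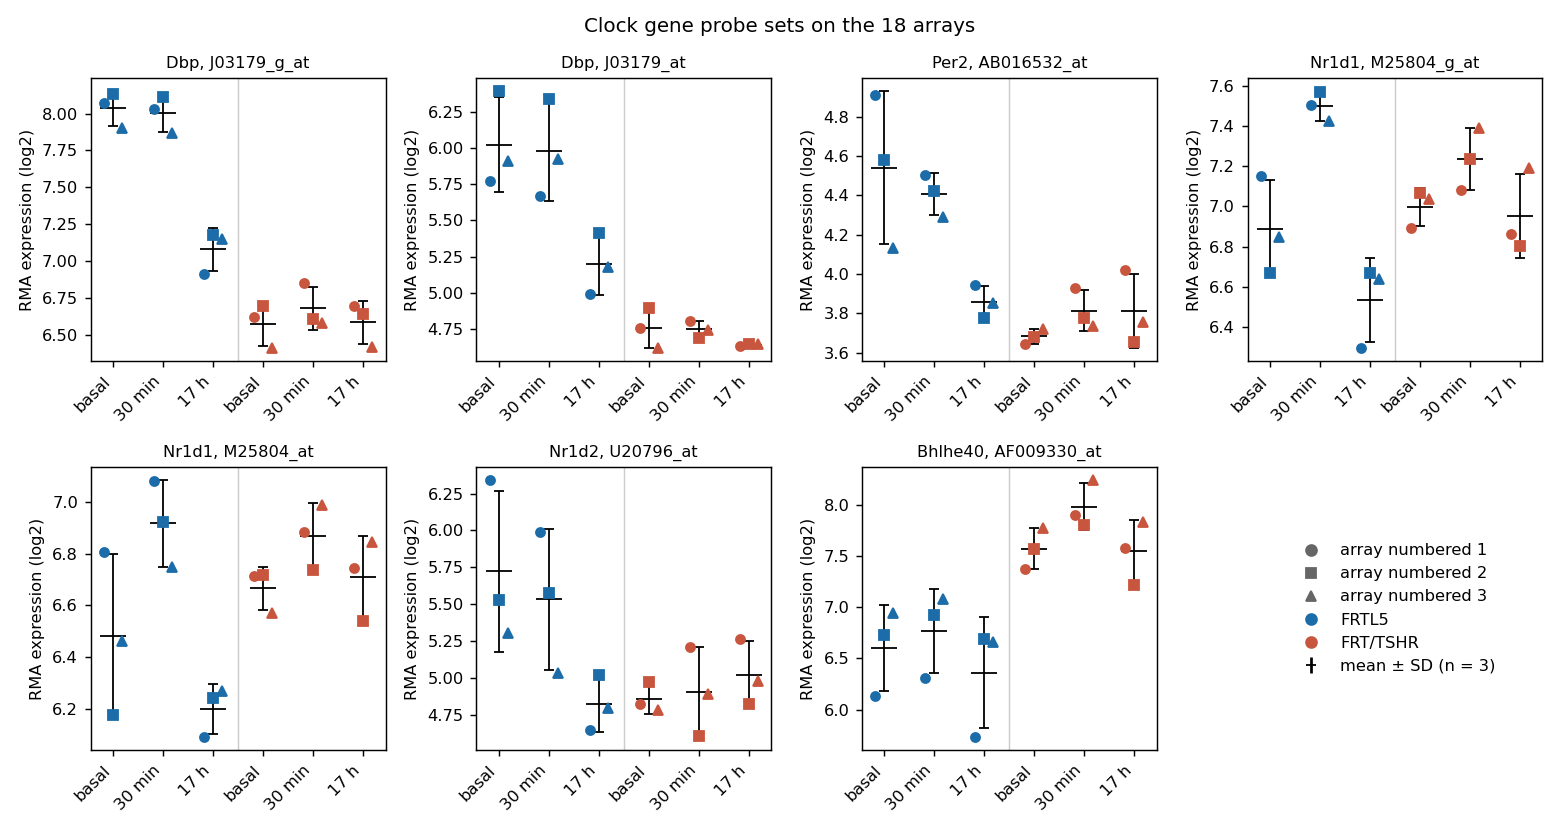
RMA expression (log2) of the 7 clock gene probe sets on each of the 18 arrays, by line and TSH time. Marker shapes give the array number within a group, and horizontal and vertical bars give mean ± SD (n = 3); the axes are scaled per panel and do not start at 0. Dbp and Per2 drop at 17 h in FRTL5, Nr1d1 stands highest there at 30 min, and the FRT/TSHR groups of Nr1d2 and of the brighter Dbp probe set overlap one another.

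Dbp encodes a PAR-domain basic leucine zipper factor that activates genes through D-boxes and is one of the strongest outputs of the clock. In FRTL5 its level fell to nearly the FRT/TSHR range after 17 h of TSH, and in FRT/TSHR it was low in all groups. On its brighter probe set (J03179_g_at) the basal FRTL5 arrays numbered 1, 2 and 3 read 8.07, 8.13 and 7.91 (log2), and the 30 min arrays 8.03, 8.11 and 7.87. After 17 h they read 6.91, 7.17 and 7.15. All 3 arrays at 17 h lay below all 6 earlier ones, and the earlier groups overlapped fully. The FRT/TSHR arrays read 6.62, 6.69 and 6.41 at basal, 6.85, 6.61 and 6.58 at 30 min, and 6.70, 6.64 and 6.42 at 17 h. These 3 groups overlapped one another, and each FRT/TSHR array was below each FRTL5 array.

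In bulk RNA such as this, fewer expressing cells and less RNA per cell cannot be told apart. Dbp fell 1.94-fold between basal and 17 h in FRTL5 (log2 difference -0.96 ± 0.12, SE; 95% confidence interval -1.21 to -0.70; limma adjusted p = 0.000455). Between 30 min and 17 h it fell by 0.92 (adjusted p = 0.000434), while 30 min against basal differed by -0.03 ± 0.12 (adjusted p = 1). Paired by array number, the basal to 17 h differences were -1.16, -0.96 and -0.75. This call and that against 30 min were kept under all 14 alternatives run, with adjusted p up to 0.0261 and 0.0202. In FRT/TSHR the 17 h difference was 0.01, with an interval of -0.24 to 0.27 that does not reach the FRTL5 value. The difference between the lines' 17 h effects was 0.97 ± 0.17 (adjusted p = 0.014). That call was lost without the FRTL5 arrays numbered 1 (0.87, adjusted p = 0.0541), without the arrays numbered 1 of both lines (0.83, 0.134) and when the model held no other arrays than those compared (0.0516), and it was kept at each of the 12 omissions of a single array. Without TSH, Dbp was 2.76-fold lower in FRT/TSHR than in FRTL5 (-1.46 ± 0.12, adjusted p = 1.11e-07).

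The second Dbp probe set (J03179_at) was dimmer and more variable between FRTL5 replicates. It read 5.77, 6.39 and 5.91 at basal, 5.67, 6.34 and 5.92 at 30 min, and 4.99, 5.41 and 5.18 at 17 h. The 17 h arrays again lay below all earlier ones, and the array numbered 1 was the lowest in each of the 3 groups. Dbp fell on this probe set by 0.82 ± 0.17 from basal to 17 h (adjusted p = 0.0135) and by 0.78 from 30 min (adjusted p = 0.0166). Each call was lost at 3 of the 6 omissions of a single array, the highest adjusted p being 0.0624 (FRTL5 basal replicate 2 omitted) and 0.0936 (FRTL5 30 min replicate 2 omitted), and also in a model of the compared arrays alone (0.122 and 0.105). In FRT/TSHR its 9 arrays lay between 4.62 and 4.90. The difference between lines at 17 h was 0.71 ± 0.24 (adjusted p = 0.285, or 0.0087 with the array numbers as a block), and across the 18 arrays, each centred on its line, the 2 probe sets correlated at r = 0.87.

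Per2 encodes a period protein, which with the CRY proteins represses BMAL1 and CLOCK. Its probe set (AB016532_at) had a low signal, its mean at the 19.5th percentile of all probe sets, and detection above background was not measured. Basal FRTL5 arrays read 4.91, 4.58 and 4.13, the 30 min arrays 4.50, 4.42 and 4.29, and the 17 h arrays 3.94, 3.78 and 3.85. All 17 h arrays were below all basal and 30 min arrays, and the array numbered 1 was the highest in each of the 3 groups. FRT/TSHR arrays read 3.65, 3.68 and 3.72 at basal, 3.93, 3.78 and 3.73 at 30 min, and 4.02, 3.66 and 3.76 at 17 h. These values cover the range of FRTL5 at 17 h, so that in the order of levels only basal and 30 min FRTL5 stood above the rest.

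Per2 fell 1.60-fold from basal to 17 h in FRTL5 (-0.68 ± 0.15, adjusted p = 0.0189), with differences of -0.97, -0.80 and -0.28 by array number. Omitting a single array ended the call in 4 of 6 cases, the highest adjusted p being 0.0785 (FRTL5 17 h replicate 2 omitted). It was also lost without the FRTL5 arrays numbered 1 (-0.54, 0.0876), without the arrays numbered 1 of both lines (0.0698) and in a model of the compared arrays alone (0.208). Against 30 min the 17 h difference was -0.55 ± 0.15 and did not pass (adjusted p = 0.0558, or 0.01 with the replicate block and 0.0448 with a trended and robust variance). At 30 min Per2 differed from basal by -0.13 ± 0.15 (adjusted p = 1) in FRTL5 and by 0.13 ± 0.15 (adjusted p = 1) in FRT/TSHR. The effect at 17 h differed between lines by 0.81 ± 0.21 without passing (adjusted p = 0.104, or 0.0183 with the block; 0.0204 without FRTL5 basal replicate 3). In basal cells Per2 was 1.81-fold lower in FRT/TSHR (-0.86 ± 0.15, adjusted p = 0.000402), a call kept at all 6 omissions of a single array.

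Nr1d1 encodes REV-ERB alpha, the heme-binding nuclear receptor that represses Bmal1. Its gene overlaps Thra, the thyroid hormone receptor alpha gene, on the other strand, and whether Thra transcripts reach these probes was not tested. In FRTL5 it stood highest at 30 min, and it fell from there to 17 h. On the brighter probe set (M25804_g_at) basal FRTL5 arrays read 7.15, 6.67 and 6.85, the 30 min arrays 7.50, 7.57 and 7.42, and the 17 h arrays 6.30, 6.67 and 6.64. The 3 groups did not overlap: 30 min lay above basal and 17 h below it, although the arrays numbered 2 at basal and 17 h differed by less than 0.01. In FRT/TSHR the arrays read 6.89, 7.07 and 7.04 at basal, 7.08, 7.24 and 7.39 at 30 min, and 6.86, 6.80 and 7.19 at 17 h. The 30 min arrays were above the basal ones there too, by a smaller margin.

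From 30 min to 17 h Nr1d1 fell 1.95-fold in FRTL5 (-0.97 ± 0.14, adjusted p = 0.00114), kept under all 14 alternatives. The 30 min against basal difference was 0.61 ± 0.14, with a 95% interval of 0.31 to 0.91, and did not pass (adjusted p = 0.152). It passed without the FRTL5 arrays numbered 1 (0.74, adjusted p = 0.0438), and over the 14 alternatives its adjusted p ran from 0.0438 to 0.999. The 17 h against basal difference was -0.36 ± 0.14 (adjusted p = 0.26), and -0.11 (adjusted p = 0.871) without the FRTL5 arrays numbered 1. In FRT/TSHR the corresponding values were 0.24 ± 0.14 at 30 min and -0.05 ± 0.14 at 17 h (adjusted p = 1 for both), and the difference between the lines' effects did not pass (-0.37 ± 0.20 at 30 min, adjusted p = 1; 0.31 ± 0.20 at 17 h, adjusted p = 0.884, or 0.06 and 0.989 without the FRTL5 arrays numbered 1). Nr1d1 was the member whose basal level differed least between the lines, by 0.11 ± 0.14 (adjusted p = 0.672; interval -0.19 to 0.41; 0.24 and 0.238 without the FRTL5 arrays numbered 1).

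On the second Nr1d1 probe set (M25804_at) FRTL5 read 6.81, 6.17 and 6.46 at basal, 7.08, 6.92 and 6.75 at 30 min, and 6.09, 6.24 and 6.27 at 17 h. Here basal and 30 min overlapped, as did basal and 17 h, while 30 min stayed above 17 h on every array. Nr1d1 fell on it by 0.72 ± 0.14 from 30 min to 17 h (adjusted p = 0.0096), which was lost without the arrays numbered 1 of both lines (-0.58, 0.0634). The 30 min against basal difference was 0.44 ± 0.14 (adjusted p = 0.922). FRT/TSHR arrays lay between 6.54 and 6.99, and the 2 probe sets correlated at r = 0.92 over the 18 arrays centred on their lines.

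Nr1d2 encodes REV-ERB beta, which acts partly redundantly with REV-ERB alpha. Its probe set (U20796_at) varied widely between FRTL5 replicates. Basal arrays read 6.34, 5.53 and 5.30, the 30 min arrays 5.99, 5.58 and 5.04, and the 17 h arrays 4.65, 5.02 and 4.80. The 17 h arrays lay below all earlier ones, the array numbered 3 at 30 min by only a small margin, and the array numbered 1 was highest at basal and 30 min and lowest at 17 h. FRT/TSHR read 4.83, 4.97 and 4.78 at basal, 5.22, 4.61 and 4.90 at 30 min, and 5.27, 4.82 and 4.98 at 17 h. These groups overlapped one another and FRTL5 at 17 h.

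Between basal and 17 h Nr1d2 differed by -0.90 ± 0.26 in FRTL5 and did not pass (adjusted p = 0.0725, or 0.0108 with the replicate block and 0.0381 without FRTL5 basal replicate 3). By array number the differences were -1.69, -0.50 and -0.50, so the pair numbered 1 carried much of the mean, and without the FRTL5 arrays numbered 1 the value was -0.50 (adjusted p = 0.311). Against 30 min the 17 h difference was -0.71 ± 0.26 (adjusted p = 0.168, or 0.0368 with the block), and -0.40 (adjusted p = 0.478) without the FRTL5 arrays numbered 1. The FRT/TSHR 17 h value was 0.16 ± 0.26, and the effects differed between lines by 1.06 ± 0.36 without passing (adjusted p = 0.285, or 0.0547 with the block). That value was 0.67 (adjusted p = 0.447) without the FRTL5 arrays numbered 1 and 0.53 (0.716) without those of both lines. Basal Nr1d2 was 1.82-fold lower in FRT/TSHR (-0.86 ± 0.26, adjusted p = 0.0191). Omitting a single array ended that call in 3 of 6 cases (-0.55 and 0.106 without FRTL5 basal replicate 1; 0.0554 and 0.0603 without FRT/TSHR basal replicates 1 and 3), as did leaving out the FRTL5 arrays numbered 1 (0.0506) or those of both lines (0.0574).

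Bhlhe40 encodes DEC1, a basic helix-loop-helix repressor that competes for E-boxes and also responds to hypoxia, serum and differentiation signals. It was the only member called higher in basal FRT/TSHR than in basal FRTL5. Basal FRTL5 arrays read 6.13, 6.73 and 6.94, the 30 min arrays 6.31, 6.93 and 7.08, and the 17 h arrays 5.73, 6.69 and 6.66. The 3 groups overlapped, and the array numbered 1 was the lowest in each. FRT/TSHR read 7.38, 7.57 and 7.77 at basal, 7.90, 7.81 and 8.24 at 30 min, and 7.58, 7.22 and 7.84 at 17 h. Each FRT/TSHR array was above each FRTL5 array, and the 30 min arrays stood above the basal ones.

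Between the basal lines Bhlhe40 was 1.96-fold higher in FRT/TSHR (0.97 ± 0.27, adjusted p = 0.0143). The call was lost without FRTL5 basal replicate 1 (0.74, adjusted p = 0.0769) and without FRT/TSHR basal replicate 3 (0.87, 0.0602) and kept in the other 4 such fits. No TSH comparison passed. In FRT/TSHR the 30 min difference was 0.41 ± 0.27 (adjusted p = 1). In FRTL5 it was 0.17 ± 0.27 at 30 min (adjusted p = 1), -0.24 ± 0.27 at 17 h (adjusted p = 0.853), and -0.41 ± 0.27 between the TSH times (adjusted p = 0.676, or 0.0239 with the replicate block). Omitting a single array moved the 17 h against basal value between -0.47 and 0.07, and the value between the TSH times between -0.64 and -0.09.

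**Figure D2:**
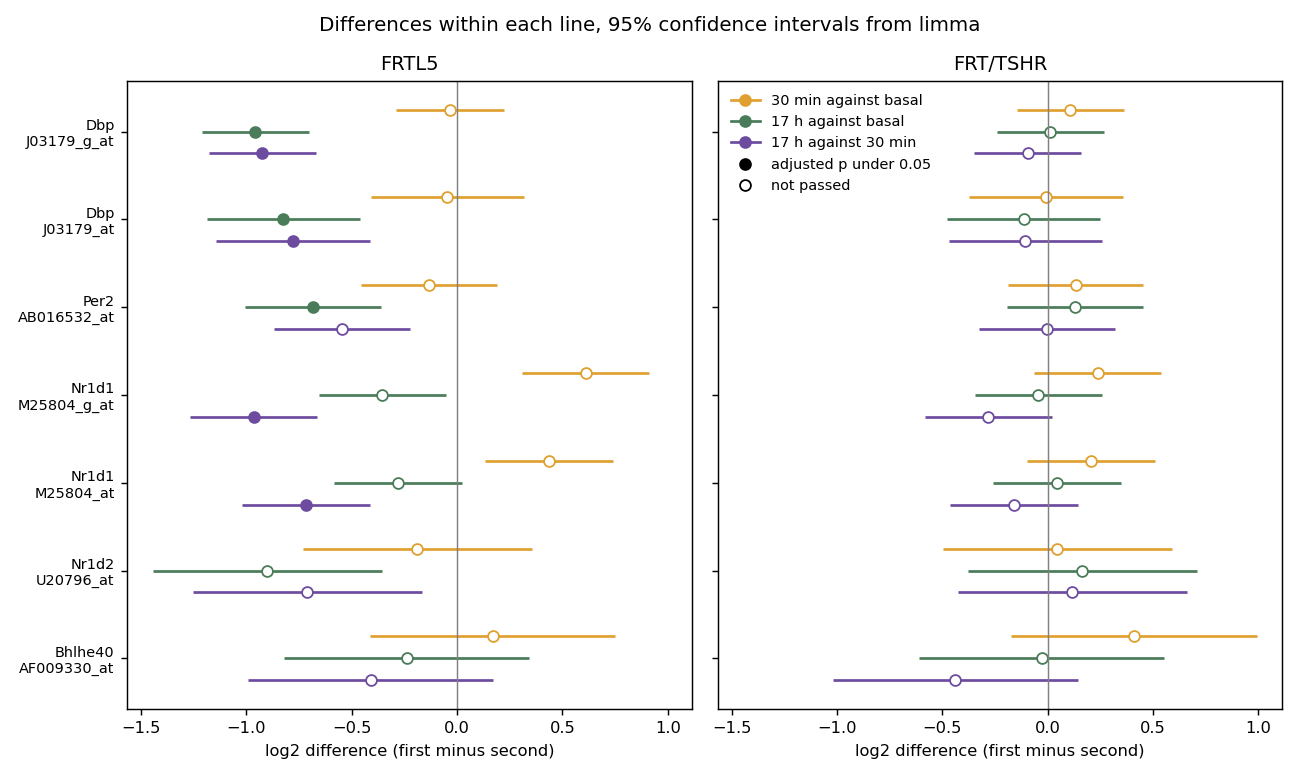
Log2 differences of the 7 clock gene probe sets within FRTL5 (left) and FRT/TSHR (right), with 95% confidence intervals from limma; filled points passed at an adjusted p under 0.05. The filled points are all in FRTL5 and all left of 0: Dbp and Per2 at 17 h against basal, and Dbp and Nr1d1 at 17 h against 30 min.

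The members were chosen with earlier results of these data known, so the shares beside their counts are descriptions and not a test. Counted over the members, 3 of 7 probe sets (both of Dbp, and Per2) fell at 17 h against basal in FRTL5, where 1.92% of all probe sets were called lower and 3.56% in either direction. All 7 values were negative, 5 probe sets did not overlap between the groups (7.78% of all probe sets did so downward), and the median over the 5 genes was -0.68 against 0.01 over all probe sets. With the replicate block 4 of 7 passed, Nr1d2 being added, where 9.92% of all probe sets did. From 30 min to 17 h, 4 of 7 fell (Dbp and Nr1d1, both probe sets of each), against a background of 2.35% called lower and 4.21% in either direction, and 6 did not overlap (8.57% of all probe sets did so downward). With the replicate block all 7 passed that comparison, where 10.5% of all probe sets did. The comparisons of 17 h with basal and with 30 min share the 17 h arrays, and those with basal share the basal arrays. At 30 min in FRTL5 0 of 7 passed (background 0.24%), with 2 at an unadjusted p under 0.05, both of Nr1d1 (241 of all probe sets, 2.76%, were under it), and 1 of 7 did not overlap with basal (3.44% upward over all probe sets).

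In FRT/TSHR 0 of 7 member probe sets passed limma at 30 min, at 17 h or between the TSH times, and 0 of 8740 probe sets passed in any of these comparisons (background 0%). None of the members had an unadjusted p under 0.05 there, while 208, 108 and 179 of all probe sets did. At 30 min 4 member probe sets (Per2, both of Nr1d1, and Bhlhe40) did not overlap with basal, all higher (5.43% of all probe sets did so upward). At 17 h 0 of 7 did so (5.64% in either direction), and between the TSH times 1 of 7 was lower without overlap (4.21%). The difference between the lines' effects passed for 0 of 7 at 30 min (background 0.0343%, none at an unadjusted p under 0.05) and for 1 of 7, Dbp, at 17 h (background 0.789%, and 0.309% above 0). All 7 values at 17 h were above 0, and 3 passed with the replicate block, where 4.18% of all probe sets did. Between the basal lines 5 of 7 passed, against a background of 25.5%. Of these, 4 were lower in FRT/TSHR (12.2% of all probe sets) and 1 was higher (13.3%).

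**Figure D3:**
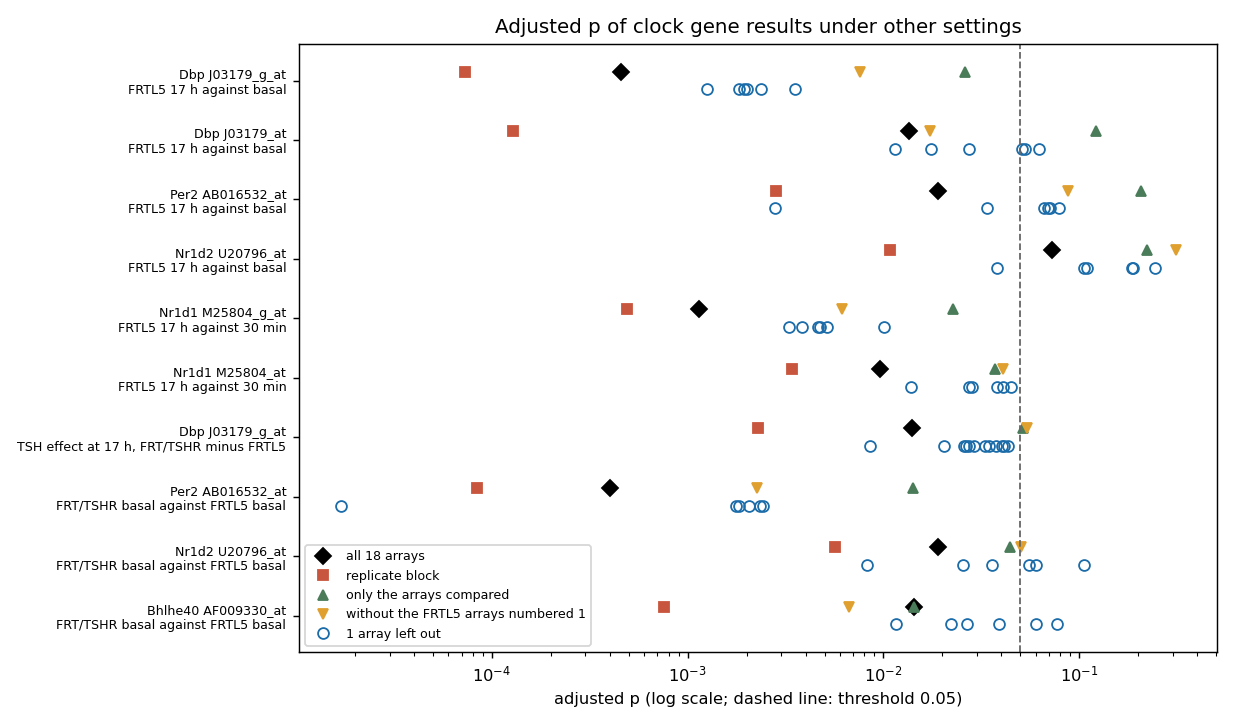
Adjusted p (log axis) of 10 clock gene results in the fit of all 18 arrays, with the replicate block, with only the arrays compared, without the FRTL5 arrays numbered 1, and with each array left out; the dashed line is the threshold of 0.05. The fall of Dbp (J03179_g_at) at 17 h and that of Nr1d1 (M25804_g_at) from 30 min stay left of the line at every setting shown, while Per2 and Nr1d2 at 17 h lie on both sides.

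Other genes of the clock and its outputs were taken from 7 lists, and 19 besides the 5 members had a probe set. Of the 5 PER and CRY genes listed, only Per2 had a probe set annotated to it alone. Of the 6 activator symbols listed, some of which are older and newer names of the same gene, only Bmal1 did. Per1, the Cry genes and Clock were therefore not measured here. At 17 h against basal in FRTL5, 0 of the 19 rose and 1 fell, with a median of 0.00. Over all probe sets 1.64% were called higher and 1.92% lower there. The one that fell was Klf9, a Krüppel-like factor under clock and glucocorticoid control (-1.07 ± 0.24, adjusted p = 0.0195; -0.79 ± 0.48 and 0.591 on its second probe set). Bmal1, the activator that REV-ERBs repress, had values of 0.30 ± 0.13 (adjusted p = 0.327) and 0.23 ± 0.15 on its 2 probe sets. The D-box factors related to Dbp differed by 0.01 (Tef) and by 0.00 to 0.06 (Hlf, 3 probe sets), and Bhlhe41, the paralogue of Bhlhe40, by -0.27 ± 0.21 (adjusted p = 0.723). None of the 7 measured clock kinases was called.

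From 30 min to 17 h in FRTL5, 2 of the 19 fell: Klf9 (-1.20, adjusted p = 0.0108; -1.18 ± 0.48 and 0.256 on its second probe set) and Klf10, a clock-controlled Krüppel-like factor also induced by TGF-beta (-0.76 ± 0.13, adjusted p = 0.004; -0.73 and 0.0128, and -0.28 and 0.258, on its other probe sets). Over all probe sets 2.35% were called lower between these TSH times. At 30 min against basal none of the 19 passed on its representative probe set (0.24% of all probe sets did). A second Klf10 probe set (rc_AI071299_at) rose by 0.81 (adjusted p = 0.0352). In FRT/TSHR none of the 19 passed in any TSH comparison, and 0% of all probe sets did. Between the basal lines 4 of the 19 passed, against a background of 25.5%: 3 were lower in FRT/TSHR (Klf9 at -2.50, Klf10 at -0.66 and Por, cytochrome P450 reductase, at -0.65) and 1 was higher (Csnk2a1, the casein kinase 2 alpha subunit, at 0.79 on its brightest probe set but not on its other 2, at 0.24 and -0.21). Klf9 passed on its second probe set too (-2.04, adjusted p = 0.00406), while Klf10 (-0.10, 0.719; -0.12, 0.541) and Por (-0.98, 0.138; -0.53, 0.439) did not on their others. The heme synthesis gene Alas1 (-0.54, adjusted p = 0.00562) and the kinase gene Gsk3b (0.50, 0.00988) passed on a second probe set alone.

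**Figure D4:**
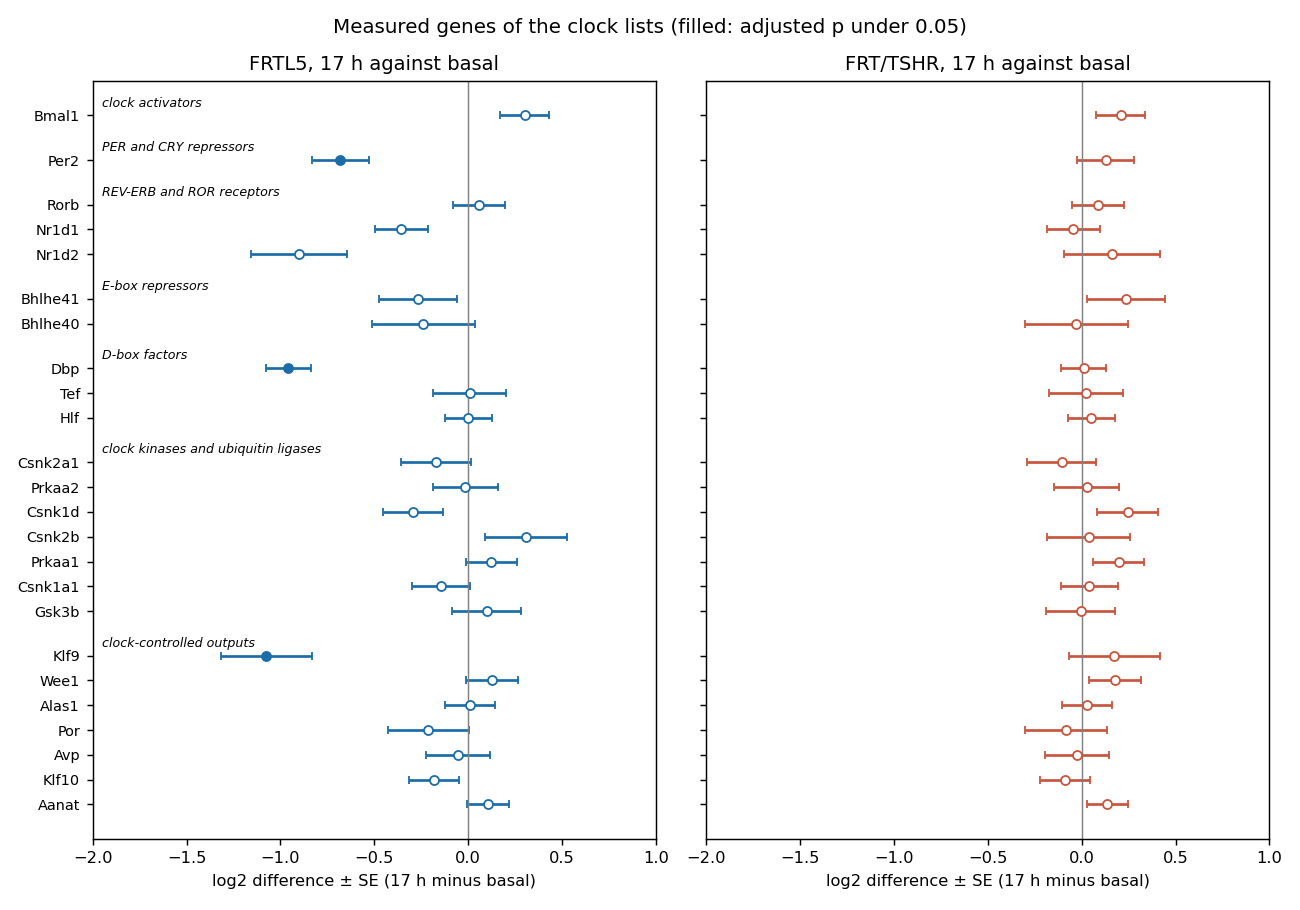
Log2 difference ± SE at 17 h against basal for the 24 measured genes of the 7 clock lists, in FRTL5 (left) and FRT/TSHR (right), 1 representative probe set per gene. Filled points (Dbp, Per2 and Klf9, FRTL5 only) passed at an adjusted p under 0.05, and most other genes lie near 0.

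Because cAMP is the main second messenger of TSH and can act on Per genes, a list of cAMP-CREB target genes was set beside the members. This list too was chosen with earlier results of these data known, so the shares beside its counts are descriptions and not a test. In FRTL5 5 of its 10 measured genes rose at 30 min, where 0.24% of all probe sets did. The median was 1.48 against 0.00 over all probe sets. Among the genes that rose was the nuclear receptor Nr4a1 (3.41 ± 0.33, adjusted p = 8.86e-05). Probe sets of 1 gene differed in this: Nr4a2 and Junb passed on a second probe set alone, and Fos, Egr1 and Nr4a3 each had a probe set that did not pass. None of the 10 passed at 17 h on its representative probe set (3.56% of all probe sets passed there). A second Crem probe set (S66024_at) rose by 0.45 (adjusted p = 0.0234). In FRT/TSHR none passed at 30 min, but 0% of all probe sets did, so the absence of calls does not set this list apart. Of the 10 values there, 9 were higher and 1 was lower. Their median was 0.28 against 0.03 over all probe sets, and Nr4a1 differed by 0.12. At the same 30 min arrays in FRTL5 the member values ran from -0.19 (Nr1d2) to 0.61 (Nr1d1).

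Across the 18 arrays, each centred on the mean of its line, the members' values correlated as follows, given as descriptions over arrays that share groups and array numbers. Per2 and Nr1d2 correlated at r = 0.88, Dbp (J03179_g_at) and Per2 at 0.81, and that probe set and Nr1d2 at 0.77; on the second Dbp probe set the last 2 were 0.58 and 0.49. Nr1d1 (M25804_g_at) correlated at 0.62 with Dbp and at 0.49 with both Per2 and Nr1d2, and its second probe set at 0.63, 0.58 and 0.66. Bhlhe40 stood at -0.01 with Per2, -0.05 with Nr1d2, 0.30 or 0.50 with Dbp and 0.50 or 0.29 with Nr1d1, by probe set. Among 4735 other genes the pattern nearest to Per2 was that of Klf9 (r = 0.94), followed by Kiaa0040 (0.90). Nearest to Dbp were Ech1, a peroxisomal and mitochondrial dienoyl-CoA isomerase (0.94), Irf7, an interferon regulatory factor (0.91), and Rabac1 (0.90). Nearest to Nr1d1 were the helix-loop-helix inhibitor Id1 (0.88), the ERK phosphatase Dusp6 (0.85) and Egr1 (0.84). Nr1d2 was closest to the repressor Hbp1 (0.93), and Bhlhe40 to Mplkip and the Notch target Hes1 (0.87 each).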

How the data were processed

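Expression was measured on 18 one-colour arrays, 3 per group. RMA, which corrects background, normalizes arrays and summarizes probes, was run by the authors, per the submitters' processing notes; no version or setting of it is given in the sources read. In the deposited table each probe set has log2 values, a scale read from the values (2.61 to 13.58). Of 8799 probe sets, 59 controls were left out, and no filter on signal was used. The number of arrays limits the precision. Symbols came from the platform annotation. Where a gene had several probe sets, the brightest on average stands for it. The members' other probe sets are given beside it, and those of other clock genes where the call differs.

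In R 4.3.3, limma 3.58.1 estimated 6 group means from the 18 arrays together (12 residual degrees of freedom). Tests were two-sided, with Benjamini-Hochberg adjustment over the 8740 probe sets, separately for 9 comparisons, and calls were made at an adjusted p under 0.05. Errors are limma standard errors unless SD is named. The fit was tested on simulated data for FRTL5 at 17 h against basal (8740 probe sets). It called 59% of 100 changes of 0.7 and 86% of 100 changes of 1, with 13 false calls beside them. The simulated noise was independent between arrays, while same-numbered arrays in the data deviated together, so these rates may not hold for the data. P-values measure the spread between replicates that the labels call biological.

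Same-numbered arrays of a line deviated together in 18 of 18 pairs (correlations of 0.148 to 0.798 over probe sets). Across the lines, same-numbered arrays correlated at -0.217 to 0.420, with 17 of 27 pairs over 0.1. The main fit did not pair the arrays, so its p-values and intervals leave this sharing out. A fit with the number as a block is given where it changes a call. The pairing in that block comes from this check, since the labels do not state it.

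Alternatives were this block, only the arrays compared, each array left out, the arrays numbered 1 left out, quantile normalization, median centring, removal of the dimmest probe sets, a trended and robust variance, and the other probe set of a gene. Leaving out only the FRTL5 arrays numbered 1 was chosen after seeing the data. Members and gene lists were chosen with earlier results of these data known. Named besides the members were genes of the clock, cAMP-CREB and cell marker lists, and up to 3 genes per member of most similar pattern (Pearson correlation).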

Additional observations from a re-analysis of the deposited data

Results flagged for a closer look

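The change of Dbp (J03179_g_at) from basal to 17 h of TSH differed between the lines, by a test of the difference itself. The FRTL5 change was -0.96 and the FRT/TSHR change 0.01, and the FRT/TSHR effect minus the FRTL5 effect was 0.97 ± 0.17 (SE; limma adjusted p = 0.014). Dbp was lower at 17 h in 3 of 3 FRTL5 array pairs and in 1 of 3 FRT/TSHR pairs. The second Dbp probe set gave 0.71 ± 0.24 (adjusted p = 0.285). The FRT/TSHR basal level of Dbp already lay below the FRTL5 level at 17 h. The part of line, dose, medium and starting level in the difference cannot be told apart. Nor can TSH be told apart from time since the basal harvest in either line. Groups of 3 arrays were not tested for outlying arrays.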

How the results depend on the processing

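Of 975 values of member probe sets under alternatives, 938 kept their side of the threshold, 10 passed newly, 27 lost the call and 0 reversed while called. Most of these values belong to results not called in the fit of all arrays, which had no call to lose. The 938 therefore do not measure how stable the calls are. The sign turned in 44 of the 938, uncalled under both settings and at most 0.24 in size in the fit of all arrays. Quantile normalization, median centring and leaving out dim probe sets (which removed Per2) changed no member call. The numbers of member probe sets called moved as follows, and the cause was not tested. With the replicate block 7 passed for FRTL5 17 h against 30 min and 3 for the line difference at 17 h; with only the arrays compared, which leaves fewer residual degrees of freedom, 1 passed for FRTL5 17 h against basal and 0 for that line difference. Without the FRTL5 arrays numbered 1 the counts were 1 at 30 min in FRTL5 and 0 for the line difference at 17 h, and 0 for the latter without those of both lines. With 1 array left out the counts ran from 1 to 4 (FRTL5 17 h against basal), 3 to 4 (17 h against 30 min), 3 to 5 (basal lines) and 1 to 2 (line difference at 17 h), and stayed at 0 for FRTL5 and FRT/TSHR at 30 min, the other FRT/TSHR comparisons and the line difference at 30 min.

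Over all probe sets the block moved the calls from 21 to 40 (FRTL5 30 min), 311 to 867 (17 h), 368 to 916 (17 h against 30 min), 3 to 8 (line difference at 30 min) and 69 to 365 (at 17 h). With only the arrays compared they were 2, 96, 189, 1 and 22. Without the arrays numbered 1 of both lines they were 52 at 30 min in FRTL5, 2 at 30 min and 2 between the TSH times in FRT/TSHR, and 25 for the line difference at 30 min; without those of FRTL5 alone, 45 and 25. With 1 array left out they ran from 12 to 44, 152 to 253, 145 to 270, 1 to 24 and 33 to 83 in the same order of 5, from 0 to 8 between the TSH times in FRT/TSHR, from 1877 to 2068 between the basal lines, and stayed at 0 for the other FRT/TSHR comparisons. Fits that leave a group with fewer arrays keep the pooled spread of all groups. Signal over background was not measured, which limits Per2 most.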
